A study of Homo sapiens with 8 samples.

Results

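The response of CAKI-1 cells to the branched-chain amino acids (BCAA) isoleucine, leucine and valine was measured by RNA sequencing of 4 libraries, out of 8 in the series. CAKI-1 is an established human clear cell renal cell carcinoma (ccRCC) line. For 16 h the cells were kept either in medium holding isoleucine at 0.38 mM, leucine at 0.38 mM and valine at 0.17 mM, or in medium lacking all 3 (here also called starved), with 2 libraries per condition. The other 4 libraries repeat the comparison in 769-P, a second ccRCC line, and enter only where the lines are set against each other.

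The cells were maintained in MEM with serum, and by the study's methods the BCAA-free medium was made from amino acid-free RPMI with dialyzed serum. Which other amino acids it held is not given in the sources used here. Of 24190 genes listed for CAKI-1, the 21347 with a mean value of 1 or more were tested, and the 11720 with a mean of 100 or more, here called well-read, are described first. A value is a gene's reads divided by a size factor for the library, and a log2 fold change is BCAA over no BCAA, so positive numbers are genes higher when BCAA were present. Bulk values of this kind are relative, and a gene's share of the RNA cannot be told apart from a change in total RNA per cell or in the mix of cell states. The labels do not say that the 2 libraries of a condition came from separate cultures, so the p-values measure the spread between these libraries, which may be technical.

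The BCAA are essential: cells cannot make them, take them up through the SLC7A5 transporter, use them for protein synthesis, and break them down in mitochondria through transamination and the branched-chain ketoacid dehydrogenase. Leucine also signals through the Rag GTPases to mTORC1, the kinase complex that drives translation, ribosome production and lipid synthesis. When any essential amino acid runs short, uncharged tRNA activates the kinase GCN2, and the transcription factor ATF4 then raises genes for amino acid synthesis, transport and stress. Genes needed for DNA replication and mitosis rise and fall with the share of cells in cycle and are driven largely by E2F factors and by the DREAM and MuvB complexes.

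The 4 libraries held between 30979773 and 47054568 reads on listed genes, and the shallowest was replicate 2 without BCAA. Replicates agreed closely, with Pearson's r across the log2 values of 11720 well-read genes of 0.995 with BCAA and 0.996 without them (genes are not independent replicates), and the first principal component, holding 79.6% of the variance, separated the conditions. The 10 most abundant genes took 6.14% and 6.04% of reads with BCAA and 7.22% and 7.58% without them. Of 18 renal markers listed, 14 were tested and 11 were well-read. PAX8, the lineage factor, had a mean value of 10120 and the receptor MET 45703, both named after their values were seen. CDH1, the epithelial cadherin, was near the floor at 17.2, and PAX2 and HNF4A were not analysed here. Of the markers of other cells, 2 of 7 endothelial and 4 of 9 immune genes were tested, with summed values of 5.82 to 10.5 and of 36.0 to 108 per library. The 5 fibroblast markers tested summed to 102482 to 149608, and 2 of them, the collagen gene COL1A1 and the receptor PDGFRB, were higher with BCAA (0.31 and 0.58), with 0 higher when replicate 1 of either condition was left out of a fit over both cell lines and 1 without replicate 2 of the starved cells.

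With BCAA present, CAKI-1 cells held more RNA of DNA replication, mitosis, homologous recombination and some lipid synthesis genes, and less RNA of ribosomal proteins, snoRNA host RNAs, amino acid stress genes and lysosomal genes. Over all 21347 genes, 2312 (10.8%) were higher with BCAA and 1931 (9.05%) were lower at a limma adjusted p of 0.05, 19.9% in all. Among the 11720 well-read genes the counts were 2195 higher (18.7%) and 1818 lower (15.5%). Most of these changes were small: the median size of the log2 fold change over well-read genes was 0.19, and 208 rises and 57 falls among them reached 2-fold. The changes of 2-fold or more were thus mostly rises. List counts below are to be read beside the 18.7% higher and 15.5% lower of well-read genes. A count near these shares sets no list apart. The share called followed depth, from 0.707% of genes with means of 1 to under 10 to 55.9% of genes with means of 10000 or more, so a gene read rarely and left uncalled was often not measured well enough to be called.

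**Figure D1:**
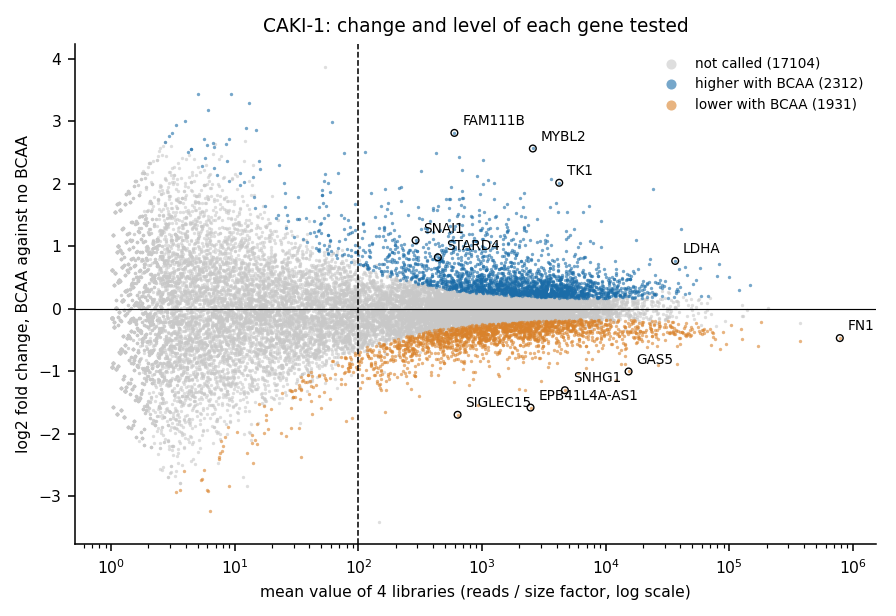
Log2 fold change (vertical axis, BCAA against no BCAA) of each of the 21347 genes tested against its mean value over the 4 libraries (horizontal axis, reads over size factor, log scale), with genes called higher in blue (2312), called lower in orange (1931) and uncalled in grey. Called genes lie mainly to the right of the dashed line at a mean of 100, and the rises reach further from 0 than the falls there.

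These calls rest on having all 4 libraries. With any 1 library left out, limma on the remaining 3 called 0 genes, although 4084 to 5590 genes had an unadjusted p under 0.05, and edgeR's quasi-likelihood test on the same 3 libraries called 3298 to 5510. When the 4 libraries of 769-P were added to the fit, so that 7 libraries shared 1 estimate of the spread and the lone sample was assumed to vary like the rest, limma called 1868 to 2437 genes higher and 1455 to 2139 lower in CAKI-1. In those 4 fits the counts of the replication, mitosis, recombination, sterol, ribosomal protein and snoRNA host lists stayed within 1.5 times those given here. The counts of many lists of smaller changes did not, as given beside most of them.

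Replication and cell cycle genes made up nearly all of the largest rises. FAM111B, a protease, was the well-read gene with the largest rise, with values of 1013 and 1077 with BCAA and 172 and 126 without them (log2 fold change 2.82, SE 0.15, limma adjusted p = 5.64e-07). MYBL2, the B-Myb transcription factor of late S and G2 genes, read 4542 and 4264 with BCAA against 736 and 748 without them, the smallest p of any well-read gene (log2 fold change 2.57, adjusted p = 1.30e-08). In both genes the lower library with BCAA stood several-fold above the higher library without them.

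E2F8, an atypical E2F repressor, followed at 201 and 181 with BCAA and 33.3 and 32.2 without them (log2 fold change 2.51), and ESCO2, which acetylates cohesin in S phase, at 709 and 745 with BCAA and 133 and 122 without them (2.50). CLSPN, the checkpoint mediator claspin, read 1237 and 975 with BCAA and 185 and 223 without them (2.43). The rest of the 15 largest well-read rises were MCM10 (2.38), CDC25A (2.22), CDC45 (2.21), E2F1 (2.12), RRM2 (2.08), UHRF1 (2.06), CDC6 (2.02), TK1 (2.02), ERCC6L (1.95) and AC112777.1 (1.998), a processed pseudogene whose reads may belong to its parent gene. Of the genes with the smallest p beside these, MCM4, ATAD2, LMNB1 and FEN1 rose by 1.65, 1.69, 1.63 and 1.63 on the log2 scale. ATAD2 is a chromatin ATPase that works with E2F and MYC, LMNB1 is lamin B1 of the nuclear envelope, and FEN1 trims Okazaki fragments.

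**Figure D2:**
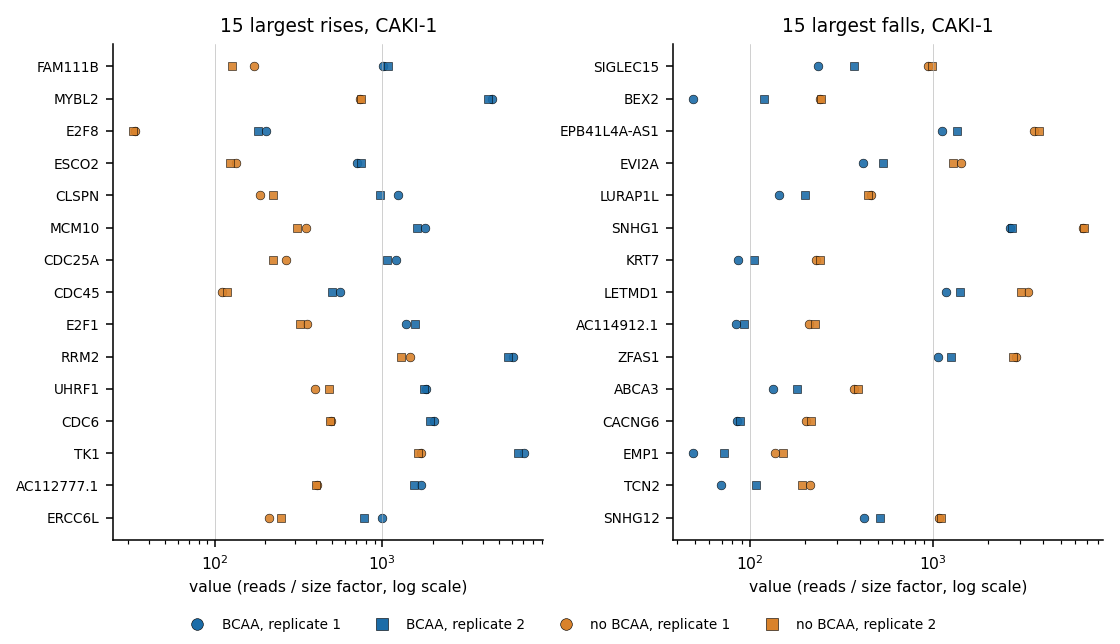
Values (horizontal axis, reads over size factor, log scale) of the 15 well-read genes with the largest rises (left) and the 15 with the largest falls (right) in each CAKI-1 library, circles for replicate 1 and squares for replicate 2, blue with BCAA and orange without. The conditions do not overlap for any of the 30 genes, as the rule for choosing them required, and the 2 libraries with BCAA lie further apart for BEX2 than for SNHG1.

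Every tested member of the licensing and origin firing list rose, 21 of 21, with a median log2 fold change of 1.18 beside 0.00 over all well-read genes. This list holds ORC subunits, the MCM helicase and the GINS, CDC45 and CDC6 proteins that load and start it. MCM10, which starts the helicase, read 1797 and 1618 with BCAA and 349 and 308 without them, CDC45 556 and 500.1 with BCAA and 109 and 117 without them, and CDC6, the loader of MCM, 2052 and 1933 with BCAA and 494 and 486 without them. In all 3 the libraries of a condition lay close together and far from the other condition. GINS1 and GINS2, subunits of the active helicase, both rose by 1.76, and MCM4, a helicase subunit, read 11467 and 10779.5 with BCAA and 3463 and 3630.2 without them.

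The replication fork and polymerase list was also called throughout, with 27 of 27 higher and a median of 0.86. Besides CLSPN and FEN1 it included UHRF1, which carries DNA methylation through replication, at 1837 and 1785 with BCAA and 394 and 479 without them, POLE2, a subunit of polymerase epsilon, at 208 and 187 with BCAA and 66.5 and 43.8 without them (log2 fold change 1.85), and the histone chaperone subunit CHAF1A (1.36). For deoxynucleotide supply 9 of 11 rose (median 0.79). The ribonucleotide reductase subunit RRM2 read 6089 and 5675 with BCAA and 1475 and 1301 without them, thymidine kinase TK1 read 7015 and 6482 with BCAA and 1702 and 1627 without them, and thymidylate synthase TYMS rose by 1.09. RRM2B, the p53-inducible form of the reductase subunit, read 5912 and 5517 with BCAA and 6439.9 and 6255 without them and was not called (log2 fold change -0.15, 95% interval -0.28 to -0.02), though it was called lower when all 8 libraries shared a fit.

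Most G1 and S cyclins and their kinases were higher with BCAA, 8 of 10 tested (median 1.11). Cyclin E2, CCNE2, read 337 and 364 with BCAA and 86.5 and 93.9 without them (log2 fold change 1.94) and cyclin A2, CCNA2, 3606 and 3192 with BCAA and 901 and 966 without them (1.86). CDC25A, the phosphatase that frees CDK2, read 1206 and 1071 with BCAA and 267 and 221 without them, and CDK2 itself rose by 1.18. Among the G1 cyclins, CCND3 rose (2192 and 2153 with BCAA and 1061 and 1037 without them, log2 fold change 1.05), whereas CCND1, with values of 14682 and 15994 with BCAA and 14989 and 15549 without them, differed by 0.01 (95% interval -0.12 to 0.14), and its partner CDK4 by -0.03 (-0.15 to 0.09).

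Of the CDK inhibitors, CDKN1A, which encodes p21, fell with BCAA from 23932 and 22549 without them to 15800.2 and 16760.5 (log2 fold change -0.51, SE 0.06). CDKN2C, which encodes p18, moved the other way, at 1416 and 1157 with BCAA and 767 and 724 without them (0.78). CDKN1B, which encodes p27, was not called (-0.16), and CDKN2A and CDKN2B were not analysed here. Without replicate 2 of the starved cells, 2 of the list were lower in the fit over 7 libraries.

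E2F and pocket protein genes were mixed, with 8 of 13 higher and 2 lower (median 0.29). The activators E2F1, at 1379 and 1573 with BCAA and 353 and 323 without them, and E2F2, read at only 85.6 and 133 with BCAA and 12.4 and 12.9 without them, rose along with E2F8, while TFDP1, the shared dimer partner, and RBL1, which encodes p107, rose by 0.76 and 0.72. E2F5, a DREAM complex member, fell (-0.37), a call lost without replicate 1 of the starved cells in the 7-library fit. Of 14 replication-dependent histone genes 2 were lower in limma (14.3%, beside 15.5% of well-read genes). HIST1H2AC read 1359 and 1448 with BCAA and 1833 and 1764 without them (log2 fold change -0.36) and HIST2H2BE 347 and 404 with BCAA and 541 and 504 without them (-0.48). Most histone mRNAs lack a poly(A) tail and 5 of the 14 were well-read, and in the fits over 7 libraries between 0 and 1 were called lower.

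Nearly all mitotic genes rose, 29 of 30 with a median of 1.22. The exception, named after its values were seen, was SPC25, a kinetochore subunit at only 10.7 and 7.49 with BCAA and 4.75 and 5.15 without them. BIRC5, which encodes survivin of the chromosomal passenger complex, read 6481 and 5753 with BCAA and 2016 and 2134 without them (log2 fold change 1.56), the cytokinesis scaffold ANLN 8154 and 6477 with BCAA and 2397 and 2575 without them (1.55) and the mitotic kinase CDK1 3467 and 3089.5 with BCAA and 1188 and 1175 without them (1.47). MKI67, the proliferation antigen, was less tight, with 11072 and 8391 with BCAA and 2764 and 3935 without them (1.55, SE 0.15), but the conditions did not overlap. ESPL1, the separase that cuts cohesin, rose by 1.51.

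The Fanconi and homologous recombination list gave 16 higher and 1 lower of 23 (median 1.24). EXO1, the end-resecting nuclease, read 1574 and 1420.3 with BCAA and 437 and 398 without them (log2 fold change 1.84), and RAD54L, a DNA translocase of homologous recombination, 310.3 and 373 with BCAA and 95 and 109 without them (1.73). XRCC2 and FANCB rose by 1.62 and 1.60. The one lower member, named after its values were seen, was FANCF, a Fanconi core subunit (434 and 443 with BCAA and 603 and 588 without them, -0.44).

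The promoters of the largest rises were read from RefSeq (GRCh38.p14), which held 27305 promoters in the table used, taking the first listed for each gene, and 8999 of the well-read genes. An E2F-type site was searched on both strands of the 250 bases before the start as TTTCCCGC, TTTGGCGC, TTTCGCGC or TTTGCCGC. It was present in 2.79% of all promoters, 4.54% of well-read genes, 5 of 17 licensing promoters (29.4%), 7 of 23 fork promoters (30.4%) and 21 of 159 promoters of well-read genes that rose at least 2-fold (13.2%). Of the 409 well-read genes with the site 25.2% were higher, against 19.1% of the 8590 without it (medians 0.06 and 0.01). The last 150 bases before the start are shown for 3 of the largest rises that hold such a site, in capitals.
E2F1 (chr20:33686386-33686535, minus strand): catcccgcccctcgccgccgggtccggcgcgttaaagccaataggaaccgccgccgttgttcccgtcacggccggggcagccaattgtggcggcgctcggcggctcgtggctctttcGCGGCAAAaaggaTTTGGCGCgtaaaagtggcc
CDC25A (chr3:48188418-48188567, minus strand): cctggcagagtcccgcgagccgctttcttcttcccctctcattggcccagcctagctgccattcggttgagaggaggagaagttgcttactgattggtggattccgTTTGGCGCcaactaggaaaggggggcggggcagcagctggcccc
UHRF1 (chr19:4909351-4909500, plus strand): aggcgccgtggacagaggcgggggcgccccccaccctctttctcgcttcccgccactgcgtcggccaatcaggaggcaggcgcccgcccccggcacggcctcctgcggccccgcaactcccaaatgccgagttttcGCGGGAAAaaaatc
CDC6, MYBL2 and CDC45 held none of those 8-letter sites, but each held GGCGGGA shortly before the start, a shorter string that was searched after these sequences had been read. RRM2 did not hold it, and of the 15 largest rises 11 had a RefSeq promoter, 3 of them with an E2F-type site and 6 with GGCGGGA. The shorter string was common, with 13.6% of all promoters, 23.3% of well-read genes, 47.1% of licensing promoters and 24.5% of promoters of well-read genes that rose at least 2-fold. Of well-read genes with it 21.3% were higher, against 18.7% of those without it.
CDC6 (chr17:40287729-40287878, plus strand): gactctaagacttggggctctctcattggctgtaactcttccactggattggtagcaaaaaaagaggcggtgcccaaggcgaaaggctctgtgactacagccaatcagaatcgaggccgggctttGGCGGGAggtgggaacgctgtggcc
MYBL2 (chr20:43666964-43667113, plus strand): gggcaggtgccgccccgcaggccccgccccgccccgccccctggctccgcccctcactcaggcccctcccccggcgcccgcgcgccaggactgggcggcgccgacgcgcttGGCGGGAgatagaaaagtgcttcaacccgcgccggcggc
CDC45 (chr22:19479770-19479919, plus strand): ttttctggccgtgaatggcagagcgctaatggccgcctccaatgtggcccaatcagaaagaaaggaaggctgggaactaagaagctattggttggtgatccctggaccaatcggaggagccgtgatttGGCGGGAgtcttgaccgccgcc
Mitotic promoters held a different string. The CHR element, searched as TTTGAA or TTCGAA on both strands of the same 250 bases, was in 14 of 24 mitotic promoters (58.3%) and in 45 of 159 promoters of at least 2-fold rises (28.3%), against 14.6% of all promoters, 9.43% of well-read genes, and 1 of 17 licensing and 0 of 23 fork promoters. Of well-read genes with the element 22.9% were higher, against 19.0% of those without it. Neither this element nor the E2F-type site was particular to lists that rose. Of 13 snoRNA host RNAs, 10 were lower and 0 higher. Of the 11 with a promoter here, 4 held the CHR element (36.4%) and 3 an E2F-type site (27.3%). Among 20 Fanconi and homologous recombination promoters, 2 held the CHR element and 2 an E2F-type site (10% each). ANLN, MKI67 and ESPL1 are shown with the element in capitals. The 2 strings in ANLN lie back to back.
ANLN (chr7:36389712-36389861, plus strand): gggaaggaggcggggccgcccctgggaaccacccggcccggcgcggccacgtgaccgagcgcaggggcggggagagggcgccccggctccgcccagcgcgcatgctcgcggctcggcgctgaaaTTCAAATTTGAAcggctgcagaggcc
MKI67 (chr10:128126424-128126573, minus strand): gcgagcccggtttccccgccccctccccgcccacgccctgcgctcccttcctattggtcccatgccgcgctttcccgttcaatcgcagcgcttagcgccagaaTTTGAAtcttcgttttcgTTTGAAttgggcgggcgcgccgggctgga
ESPL1 (chr12:53268149-53268298, plus strand): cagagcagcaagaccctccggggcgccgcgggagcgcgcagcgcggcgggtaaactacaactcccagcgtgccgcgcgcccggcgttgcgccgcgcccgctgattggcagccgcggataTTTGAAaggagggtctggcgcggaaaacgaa
A string found is a description of these letters and not evidence of a bound factor, and a string not found says nothing of the factor.

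Among the falls with BCAA, that is, genes higher in starved cells, several were noncoding hosts of snoRNAs and the rest had no common role. SIGLEC15, a sialic acid receptor of the myeloid and osteoclast lineage, was the largest well-read fall, at 235 and 372 with BCAA and 937 and 989.6 without them (log2 fold change -1.70, SE 0.17, adjusted p = 5.65e-05). BEX2, a small adaptor protein, read 48.6 and 119.8 with BCAA and 240.4 and 244 without them (-1.65, SE 0.32), with the libraries with BCAA over 2-fold apart, and its call was lost under quantile normalization and after thinning of reads. EVI2A, a membrane protein whose gene lies within an NF1 intron, read 413 and 531 with BCAA and 1433 and 1297 without them (-1.54). Its annotated exons partly overlap those of other genes, so reads may be shared.

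LURAP1L read 145 and 199.7 with BCAA and 459 and 441 without them (log2 fold change -1.40), KRT7, a simple-epithelium keratin, 85.6 and 106 with BCAA and 231 and 242 without them (-1.30), and LETMD1, a mitochondrial membrane protein, 1174 and 1408 with BCAA and 3310.2 and 3031 without them (-1.30). The rest were ABCA3, a lipid transporter (-1.28), TCN2, the cobalamin carrier (-1.22), CACNG6, a calcium channel gamma subunit (-1.27), AC114912.1, a long noncoding RNA (-1.30), and EMP1, an epithelial membrane protein (-1.27). The EMP1 call was lost in 3 of the 4 fits over 7 libraries and that of AC114912.1 in all 4. In all of these the conditions did not overlap, as the rule for choosing them required.

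Ribosomal protein genes fell together and by little. Of 41 cytosolic ribosomal protein genes tested, 40 were lower with BCAA, with a median log2 fold change of -0.35 and a range from -0.61 to -0.19, and in all 41 both libraries with BCAA lay below both without, as in 34.2% of well-read genes (the reverse held for 37.2%). RPS9, the one uncalled gene, was also the one under a mean of 100 and gave the lowest value. RPL10A read 17044 and 18957 with BCAA and 25498 and 26155 without them (log2 fold change -0.52, SE 0.06, adjusted p = 1.73e-04), RPL37 21789 and 21971 with BCAA and 30166 and 31125 without them (-0.49) and RPL13 31384 and 34408 with BCAA and 45689 and 45258 without them (-0.47). Their sum was 1214680 and 1304500 with BCAA and 1605990 and 1612220 without them. The median stayed between -0.37 and -0.30 under 3 other scalings, whereas under quantile normalization 26 of the 41 passed the threshold. Many ribosomal protein genes have processed pseudogenes that can take their reads.

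Of the 3 genes with the highest values, 2 were also lower. The pseudogene EEF1A1P5, whose reads may belong to the translation elongation factor EEF1A1, read 297147 and 323369 with BCAA and 447480.0 and 437005 without them (log2 fold change -0.51), and EEF1A1 itself, looked at after its values were seen, read 73581 and 78563 with BCAA and 109308 and 115347 without them (-0.56). FN1, fibronectin, had the highest value of any gene, at 650185 and 659678 with BCAA and 830606 and 990389 without them (-0.47), and ACTG1, gamma actin, was not called, at 366166 and 328161 with BCAA and 405380.0 and 402801 without them (-0.22, adjusted p = 0.0579). Under quantile normalization, where the gene of highest value in every library is given the same value, FN1 differed by 0 by construction, and ACTG1 turned to 0.15.

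The snoRNA host RNAs, noncoding transcripts whose introns carry small nucleolar RNAs, were lower too. Of 13 tested, 10 fell, with a median log2 fold change of -0.63 that stayed between -0.65 and -0.59 under the other scalings. EPB41L4A-AS1 read 1123 and 1349.6 with BCAA and 3577 and 3808 without them (log2 fold change -1.58), SNHG1 2659.8 and 2728 with BCAA and 6629 and 6684 without them (-1.30, SE 0.06, adjusted p = 2.26e-07) and ZFAS1 1064 and 1253 with BCAA and 2862 and 2762 without them (-1.28). SNHG12 (-1.22) and SNHG8 (-1.03) fell as well, and GAS5 read 9691 and 10686 with BCAA and 20362 and 20486 without them (-1.005). The annotated exons of EPB41L4A-AS1, ZFAS1, SNHG1 and SNHG12 partly overlap those of other genes, and no source used here says whether strand was kept, so reads of the partners cannot be told apart. Well-read long noncoding genes as a class leaned the same way, with 102 lower and 20 higher of 362 (median -0.26), beside 1569 lower and 2078 higher of 10628 protein-coding genes.

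**Figure D3:**
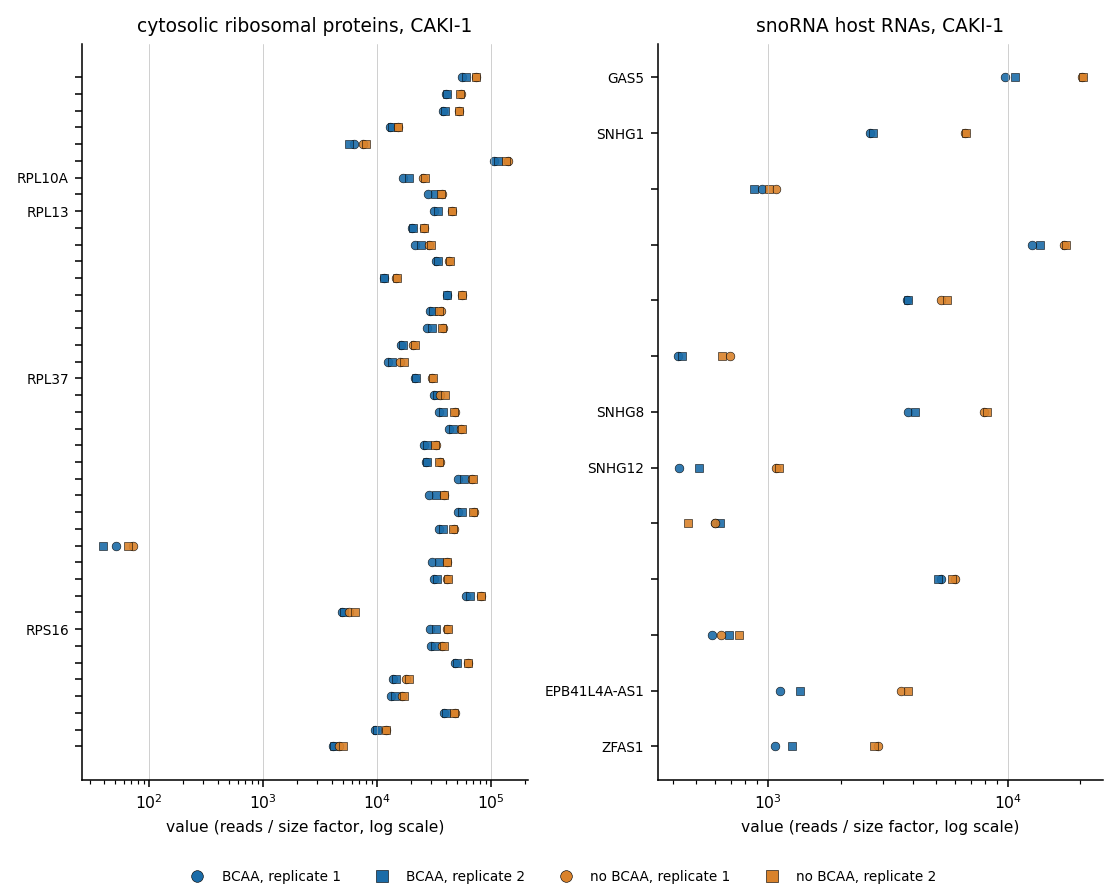
Values (horizontal axis, reads over size factor, log scale) of 41 cytosolic ribosomal protein genes (left) and 13 snoRNA host RNAs (right) in each CAKI-1 library, blue with BCAA and orange without, circles for replicate 1 and squares for replicate 2, with a row for each gene and labels on some of those named in the text. All 41 ribosomal protein genes have both orange points to the right of both blue points by a similar distance, and the gap is wider for EPB41L4A-AS1, SNHG1 and ZFAS1.

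Messages of ribosomal proteins and of several snoRNA hosts start with a C followed by a run of pyrimidines, the 5′ terminal oligopyrimidine (TOP) element through which mTORC1 acts on their translation and stability. A C within 5 bases of the RefSeq start followed by at least 4 of C or T was found for 27 of 31 ribosomal protein genes with a RefSeq entry (87.1%) and for 7 of 11 snoRNA hosts (63.6%), against 21.1% of all promoters and 23.0% of well-read genes. Lists that rose held it too, with 8 of 20 Fanconi and homologous recombination promoters (40%) and 6 of 17 licensing promoters (35.3%). It was in 3 of 23 fork promoters (13.0%) and 4 of 24 mitotic promoters (16.7%). Of 2072 well-read genes with such a start, 16.1% were higher and 20.7% were lower with BCAA, against 20.3% higher and 13.1% lower of the 6927 without it, and the medians were -0.04 and 0.02. The 30 bases around the start, 10 before and 20 after it, are shown for some of the genes named above and for RPS16, with the run in capitals where there is one.
RPL10A (chr6:35468391-35468420, plus strand): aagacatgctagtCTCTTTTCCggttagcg
RPL13 (chr16:89560647-89560676, plus strand): tgctatcatcccagagtgcattgcggggcc
RPS16 (chr19:39435930-39435959, minus strand): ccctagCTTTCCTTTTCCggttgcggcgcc
EEF1A1 (chr6:73521013-73521042, minus strand): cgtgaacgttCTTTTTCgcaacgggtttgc
SNHG12 (chr1:28581854-28581883, minus strand): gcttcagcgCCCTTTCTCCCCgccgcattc
ZFAS1 (chr20:49278632-49278661, plus strand): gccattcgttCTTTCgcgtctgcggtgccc
GAS5 (chr1:173869026-173869055, minus strand): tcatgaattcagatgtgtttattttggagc
SNHG1 (chr11:62855866-62855895, minus strand): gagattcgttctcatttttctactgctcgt
EPB41L4A-AS1 (chr5:112160516-112160545, plus strand): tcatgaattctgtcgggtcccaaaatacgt
RPL13, GAS5, SNHG1 and EPB41L4A-AS1 hold no such run at this annotated start, which says only that these letters are not there.

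Genes for making ribosomes, as opposed to ribosomal proteins, were divided: 13 of 40 rose and 5 fell (median 0.16). LYAR, a nucleolar growth factor, rose (1917 and 1941 with BCAA and 1142 and 1006 without them, log2 fold change 0.85), as did NOLC1 and UTP15 of the nucleolus (0.47 and 0.46). TAF1D, a polymerase I factor whose gene also hosts snoRNAs, fell (2329 and 2443 with BCAA and 4068 and 3619 without them, -0.69), and so did NOB1, the endonuclease that finishes 18S rRNA (-0.67), and the polymerase subunit POLR1D (-0.58).

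The amino acid response was lower with BCAA but by less than 2-fold for most members. Of 19 tested genes of the ATF4 branch, 13 were lower and 1, the lipoprotein receptor VLDLR, was higher, with a median log2 fold change of -0.42. The median was -0.24 without replicate 1 and -0.64 without replicate 2 with BCAA. DDIT3, which encodes the stress factor CHOP, read 485 and 584 with BCAA and 1154 and 1167 without them (log2 fold change -1.12, SE 0.10), PPP1R15A, the phosphatase subunit that resets eIF2, 4049 and 5451 with BCAA and 8858 and 9385 without them (-0.96) and the pseudokinase TRIB3 1586 and 2148 with BCAA and 2979 and 3383 without them (-0.78). The 2 starved libraries agreed in each, whereas replicate 1 with BCAA lay below replicate 2, most of all for GDF15, a stress cytokine, at 7490.1 and 12232 with BCAA and 15747 and 15661 without them (-0.71). Under quantile normalization 8 were lower, and the GDF15 call was also lost in DESeq2 and after thinning. An amino acid response element, searched as TGATGCAA or TGATGAAA on both strands of the 250 bases before the start, was in 1.72% of all promoters, 0.667% of well-read ones and 1 of 16 of this list (6.25%). Of 60 well-read genes with it 25% were higher and 23.3% lower, against 19.3% and 14.8% of the 8939 without it.

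Downstream of ATF4, ASNS, asparagine synthetase, read 3553 and 3635 with BCAA and 4715 and 4741 without them (log2 fold change -0.40, adjusted p = 6.72e-04). Other amino acid synthesis genes went both ways, with 5 of 17 higher and 2 lower (median 0.00). SHMT1, the cytosolic serine hydroxymethyltransferase, rose (1149 and 1253 with BCAA and 736 and 681 without them, 0.76), and PSPH, the last step of serine synthesis, rose by 0.40, while MTHFD1L of the mitochondrial folate pathway fell (-0.25).

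The cytosolic aminoacyl-tRNA synthetases held 5 lower and 2 higher of 19 (median -0.13). SARS, AARS and WARS, for serine, alanine and tryptophan, fell (-0.61, -0.46 and -0.38), and IARS, which charges tRNA with isoleucine, read 28312 and 26821 with BCAA and 32803 and 32735 without them (-0.25). In the fits over 7 libraries 1 was higher without replicate 1 or replicate 2 of the starved cells. Amino acid transporters did not move as 1 group, with 4 of 17 higher (23.5%) and 2 lower (11.8%), beside 18.7% and 15.5% of well-read genes. SLC7A5, the light chain of the exchanger that imports BCAA, was higher with BCAA, at 24378 and 21522 with BCAA and 16663 and 17051 without them (log2 fold change 0.44, SE 0.06, adjusted p = 6.96e-04), as was SLC7A6 (0.48). SLC6A15, a neutral amino acid transporter that carries BCAA, was lower, at 2589.8 and 2932 with BCAA and 3959 and 3719 without them (-0.48), a call lost in 3 of the 4 fits over 7 libraries (all but that without replicate 2 with BCAA). SLC6A9, a glycine transporter, was the other lower gene (-0.33, adjusted p = 0.0478), a call near the threshold that was lost in DESeq2, with other pseudocounts and in all 4 of those fits.

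Of 29 genes of mTORC1 and leucine sensing, 4 were lower (13.8%, median -0.08), beside 15.5% of well-read genes. RRAGC, a Rag GTPase, read 754 and 854 with BCAA and 1185 and 1199 without them (log2 fold change -0.57), SESN2, the leucine sensor that is also an ATF4 target, 3304 and 3838 with BCAA and 4347 and 4595 without them (-0.33), and the inhibitor DEPTOR only 19.5 and 22.5 with BCAA and 42.8 and 54 without them (-1.16). Calls for DEPTOR and for TSC2 (-0.29) were lost under quantile normalization and after thinning. The list holds regulators whose activity is set by protein state, which RNA levels do not measure.

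Genes that break down BCAA changed little. Of 38 tested, 5 rose (13.2%) and 2 fell (5.26%), with a median of 0.00, beside 18.7% and 15.5% of well-read genes. BCAT2, the mitochondrial transaminase, read 1162 and 1245 with BCAA and 1149 and 988 without them (log2 fold change 0.17, 95% interval -0.02 to 0.37) and was not called, nor was BCKDHB, a subunit of the ketoacid dehydrogenase, at 843 and 800.5 with BCAA and 954 and 927 without them (-0.19, -0.38 to -0.01), nor BCKDK, the kinase that inhibits it, at 1018 and 1122 with BCAA and 1108 and 1161 without them (-0.09, -0.27 to 0.10). BCKDHA, the E1 alpha subunit, had only 6.81 and 4.16 with BCAA and 1.9 and 2.57 without them, and its annotated exons partly overlap those of other genes, so its level could not be read. PPM1K, the phosphatase that activates the dehydrogenase, rose, at 431 and 368 with BCAA and 244 and 241 without them (0.71, adjusted p = 0.00261), although this call was lost in each of the 4 fits over 7 libraries.

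Downstream, ALDH1B1 rose by 0.57, ECHS1 by 0.26 and ACAT2, a thiolase that also feeds sterol synthesis, by 0.75. HIBADH, a dehydrogenase of valine breakdown, fell (2837 and 2924 with BCAA and 3725 and 3633 without them, log2 fold change -0.35). The lower count was 4 with TMM factors, 5 in edgeR and in the fit over all 8 libraries, and 4 without replicate 2 of either condition.

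Part of the genes of sterol and fatty acid synthesis rose with BCAA. Of 24 genes of cholesterol synthesis and uptake, 12 rose and 12 were not called (median 0.32), and of 16 of fatty acid synthesis, 6 rose and 10 were not called (median 0.35). STARD4, a sterol carrier, read 535 and 585 with BCAA and 349 and 286 without them (log2 fold change 0.82, SE 0.13, adjusted p = 8.81e-04) and the desaturase SCD 2893 and 3343 with BCAA and 1346 and 1206 without them (1.29). In both genes the conditions did not overlap. ACAT2, EBP and IDI1 rose by 0.75, 0.74 and 0.70, and FASN, fatty acid synthase, by 0.54. Of the sterol efflux genes driven by LXR, ABCA1, the cholesterol exporter, was not called, at 5804 and 6682 with BCAA and 6734 and 8386 without them (-0.27, adjusted p = 0.0736). It was called lower in edgeR, in the fit over all 8 libraries and in the fits over 7 without replicate 2 with BCAA or replicate 1 of the starved cells. A sterol regulatory element, searched as TCACCCCAC or TCACACCAC on both strands, was in 0.491% of all promoters, 0.378% of well-read ones and 1 of 18 of the cholesterol list (5.56%). Of 34 well-read genes with it 20.6% were higher and 17.6% lower, against 19.3% and 14.8% of the 8965 without it.

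In glycolysis 8 of 22 genes rose and 1, the glucose transporter gene SLC2A3, was lower (-0.62), with a median of 0.14. The SLC2A3 call was lost in all 4 fits over 7 libraries, in the fit over all 8 and under quantile normalization. Lactate dehydrogenase LDHA went from 27274 and 26734 without BCAA to 45715 and 46143 with them (log2 fold change 0.77), and PGAM1, GPI, ENO1 and TPI1 rose by 0.48, 0.47, 0.46 and 0.42. LDHA is also a hypoxia target, and what raised it was not tested. Of 19 other HIF genes and targets 7 were lower and 3 higher (median -0.15). NDRG1, which also answers to stress, read 1657 and 2056 with BCAA and 4033 and 4214 without them (-1.16), ANGPTL4 472 and 699.8 with BCAA and 1004 and 1049 without them (-0.84) and EPAS1, which encodes HIF-2α, the factor central to ccRCC, 2292 and 2935 with BCAA and 4049.6 and 4439.6 without them (-0.71, adjusted p = 5.54e-04). The count of hypoxia targets that were lower was 4 without replicate 1 with BCAA or without replicate 2 of the starved cells in the 7-library fits, and the ANGPTL4 call was lost without the former. The higher count was 1 without replicate 2 of either condition, and the median of the list was -0.05 without replicate 1 with BCAA.

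TXNIP, the arrestin that limits glucose uptake and is read out by MondoA, was lower with BCAA, at 6023 and 9268 with BCAA and 16669.9 and 16119 without them (log2 fold change -1.13, SE 0.14), and ARRDC4, its relative, fell too (-0.79). With them, 9 of 15 genes of the MondoA and FOXO list were lower and 1, IRS1, was higher (0.45). Without replicate 2 of the starved cells, 5 were lower in the fit over 7 libraries.

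Lysosomal and autophagy genes that passed were mostly lower with BCAA, 13 of 26 (median -0.22) and 11 of 27 (median -0.19), beside 1 and 2 higher. The autophagy receptor SQSTM1 read 23436 and 29645 with BCAA and 48991 and 48161 without them (log2 fold change -0.88), the lysosomal protease CTSD 5181 and 6075 with BCAA and 10145 and 9394 without them (-0.80) and OPTN, another receptor, 9343 and 10666 with BCAA and 14508 and 13951 without them (-0.51). Replicate 1 with BCAA was the lowest of the 4 libraries in each of these. TPP1, PSAP and NBR1 fell as well (-0.57, -0.45 and -0.40), and GLA, alpha-galactosidase, rose by 0.80. Without replicate 1 of the starved cells, 6 lysosomal and 7 autophagy genes were lower in the 7-library fit, and without replicate 1 with BCAA, 8 lysosomal genes were lower. Autophagy genes that were higher numbered 0 in 3 of those fits and 1 without replicate 2 with BCAA. Of 20 NRF2 and glutathione genes, 6 were lower and 2 higher, among them HMOX1 at 871 and 1126 with BCAA and 1609 and 1657 without them (-0.72) and the ferritin light chain FTL (-0.43), with 1 higher without replicate 2 of the starved cells. Of 22 p53 targets, 9 were lower, CDKN1A and GDF15 included, and 1, the glycolysis regulator TIGAR, was higher (median -0.16).

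Among protein-folding and protein-turnover genes the changes were small and mainly upward. Of 30 proteasome genes 11 rose and none fell (median 0.19). In edgeR, DESeq2, the fit over all 8 libraries and that over 7 without replicate 1 with BCAA, 1 was called lower. PSMD11 read 6667 and 6155 with BCAA and 4272 and 4212 without them (log2 fold change 0.59). Of 22 ER chaperone and unfolded protein response genes, 8 rose and 2 fell, among them PDIA4 (0.47) and DNAJB9 (-0.50). HSP90AA1 rose (101716 and 87717 with BCAA and 67449 and 63448 without them, 0.53) and HSPA8, the constitutive HSP70, fell (108522 and 101477 with BCAA and 152191 and 142681 without them, -0.49). Of 14 heat shock genes 5 were higher and 1 was lower. There were 3 higher and 2 lower in the fits over 7 libraries without replicate 1 with BCAA or replicate 2 of the starved cells. Without replicate 2 with BCAA 3 were lower. Without replicate 1 with BCAA, 4 ER genes were lower, and without replicate 1 of the starved cells 1 was. Of 39 nuclear-encoded respiratory chain genes 5 rose and 1 fell (median 0.03), with cytochrome c, CYCS, at 0.52, and 4 were lower without replicate 2 with BCAA and 0 without replicate 1 of either condition. The 13 mitochondrially encoded genes were not analysed here.

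SNAI1, which encodes the Snail repressor of epithelial genes (chr20:49982999-49988886, plus strand, GENCODE 29 on GRCh38), was higher with BCAA. It read 429 and 360.3 with BCAA and 202 and 166 without them, with a log2 fold change of 1.10 (SE 0.15, 95% interval 0.76 to 1.43, limma adjusted p = 4.83e-04), which is 2.14-fold. Both libraries with BCAA lay above both without. The size ranged from 0.95 to 1.24 with 1 library left out, and without replicate 1 with BCAA, where it was 0.97, the adjusted p was 0.0534 in the fit over 7 libraries. With 2 libraries a side, the smallest two-sided p of an exact permutation test is 0.333.

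Of the other transcription factors of epithelial-mesenchymal transition (EMT), those that were called gave smaller differences. SNAI2, which encodes Slug, was lower with BCAA, at 2089.7 and 1881 with BCAA and 2779 and 2695 without them (log2 fold change -0.46, adjusted p = 9.20e-04), a call lost in 3 of the 4 fits over 7 libraries. TWIST1, ZEB1 and ZEB2 were not called, with differences of 0.19, -0.14 and -0.06. FOXC2 rose by 0.46 and TCF3 by 0.20, and both calls were lost under quantile normalization and after thinning of reads, so that 1 of 9 members was higher there. SNAI3 and PRRX1 had few reads and were not called, SNAI3 at 8.76 and 10.8 with BCAA and 30.4 and 20.6 without them (-1.28, 95% interval -2.32 to -0.24) and PRRX1 at 4.86 and 5.82 with BCAA and 8.55 and 9.01 without them (-0.63).

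Mesenchymal genes went both ways, with 6 of 24 higher and 9 lower (median -0.15, or -0.048 without replicate 2 of the starved cells). THBS1, thrombospondin, read 70515 and 45031 with BCAA and 22628 and 24042 without them (log2 fold change 1.27, SE 0.15), and S100A4, a calcium-binding protein of motile cells, 225 and 258 with BCAA and 109 and 100.4 without them (1.19). VIM, vimentin, was lower with BCAA, at 64620.3 and 65548 with BCAA and 104102 and 100173 without them (-0.65), as were FN1 and MMP2 (-0.46). In the fits over 7 libraries 3 mesenchymal genes were higher without replicate 1 with BCAA and 2 without replicate 1 of the starved cells. Of 21 epithelial genes 7 were lower and none higher (median -0.19, or -0.32 without replicate 2 with BCAA), led by KRT7, CLDN4 (-0.59) and EPCAM (-0.53), although the count of 7 came down to 2 under quantile normalization, 3 without replicate 1 with BCAA and 4 without either starved library, and EPCAM was lost in all 4 fits over 7 libraries. A subset of each list was thus lower with BCAA.

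**Figure D4:**
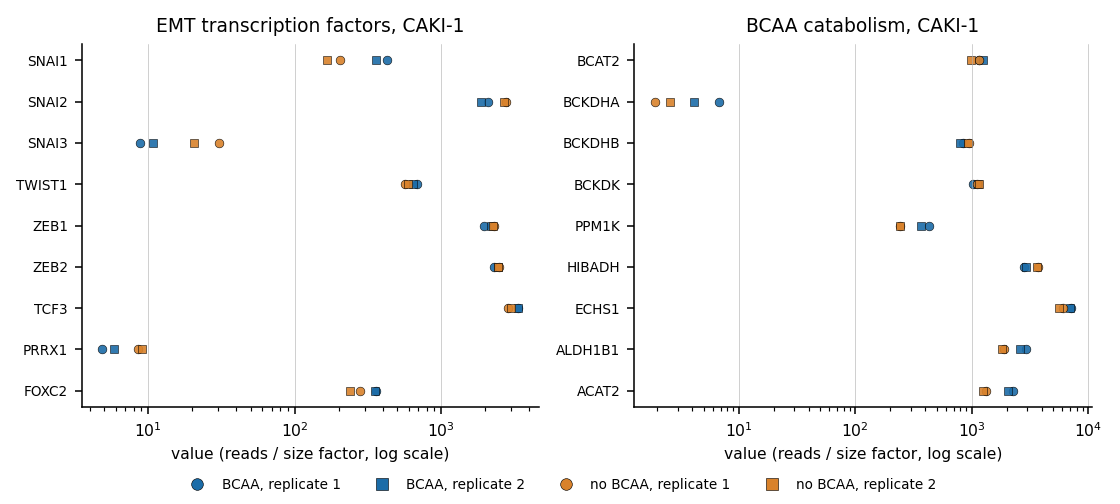
Values (horizontal axis, reads over size factor, log scale) of the 9 EMT transcription factors (left) and 9 genes of BCAA catabolism (right) named in the text in each CAKI-1 library, blue with BCAA and orange without, circles for replicate 1 and squares for replicate 2. SNAI1 and SNAI2 are separated by condition in opposite directions, and on the right the points of BCKDK lie close together while those of PPM1K are separated by condition.

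The NOTCH receptor NOTCH1 read 1951 and 1759.8 with BCAA and 1775 and 1893 without them (log2 fold change 0.02, 95% interval -0.15 to 0.18) and its target HES1, a repressor of the bHLH family, 53.5 and 69.1 with BCAA and 110.2 and 70.8 without them (-0.53, -1.15 to 0.09). Neither was called. The conditions overlapped for NOTCH1 and lay side by side for HES1, which was called lower in 2 of the 4 fits over 7 libraries. Of well-read genes 18.7% were higher and 15.5% lower. Among 23 genes of NOTCH receptors, ligands and processing 3 were higher (13.0%) and 4 lower (17.4%), with a median of 0.02. These counts were 1 and 2 without replicate 1 with BCAA, 5 higher without its replicate 2 and 1 lower without replicate 2 of the starved cells. Among 11 NOTCH targets 2 were lower (18.2%, and 1 gene without replicate 1 of the starved cells), SNAI2 and MYC (10640.2 and 11142 with BCAA and 12834 and 13424 without them, -0.27).

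HDAC7, a class IIa histone deacetylase whose annotated exons partly overlap those of other genes, read 4282 and 3975 with BCAA and 4087 and 3931 without them, a log2 difference of 0.04 with a 95% interval of -0.10 to 0.18. Of the 12 class IIa HDACs and partners tested, 6 were lower, 1 was higher and 5 were not called. Among the lower were HDAC5, at 973 and 1115 with BCAA and 1804 and 1592 without them (log2 fold change -0.70, adjusted p = 3.33e-04), and HDAC9, at 1312 and 1445 with BCAA and 1889 and 1675 without them (-0.37). The HDAC9 call was lost in the 7-library fits without replicate 1 of either condition. MEF2A, MEF2C and MEF2D, factors that class IIa HDACs bind, were lower too (-0.25, -0.63 and -0.31), the first lost in DESeq2 and under median centering and the second in all 4 fits over 7 libraries. PPARGC1A, which encodes PGC-1α, was near the floor at 11.7 and 16.6 with BCAA and 20 and 28.3 without them and not called (-0.73, -1.73 to 0.27) except when all 8 libraries shared a fit or in 2 of the 4 fits over 7 libraries, and its relative PPARGC1B rose, at 469.9 and 400.2 with BCAA and 257 and 277 without them (0.70).

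Secreted and signalling genes were mixed. The neutrophil chemokines CXCL6 and CXCL5 were higher with BCAA, CXCL6 at 92851 and 114301 with BCAA and 64574 and 60924 without them (log2 fold change 0.72) and CXCL5 at 18395 and 22439 with BCAA and 14006 and 13309.8 without them (0.57, lost in all 4 fits over 7 libraries), and so was the macrophage growth factor CSF1 (0.56). IL18 was lower, at 512 and 645 with BCAA and 1178 and 1145 without them (-1.01), and IL6 gave -0.54, also lost in all 4 of those fits. Of 23 chemokines and cytokines, 4 were higher (17.4%) and 3 lower (13.0%). These shares were close to the 18.7% and 15.5% of well-read genes and do not set the list apart. In each of the 4 fits over 7 libraries 1 was higher, and 6 were lower without replicate 2 with BCAA and 1 in each of the others.

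Of 23 interferon and antigen presentation genes, 7 were lower and 1 was higher (median -0.21), with IFI44L at 343 and 279 with BCAA and 626 and 573 without them (log2 fold change -0.95) and IFIT2 at 435 and 484 with BCAA and 654 and 723 without them (-0.58), and OAS3 the one that rose (0.60). The lower count was 4 under quantile normalization or without replicate 2 of the starved cells, and 3 genes were higher in each of the 4 fits over 7 libraries. Among immediate early genes 5 of 24 were lower and 2 higher, KLF4 leading at 158 and 209.7 with BCAA and 362 and 396 without them (-1.06), and among ERK feedback genes 4 of 17 were lower and 1 was higher, with DUSP4 at -0.82 and SPRY2 at -0.45. Without replicate 2 with BCAA, 9 immediate early and 10 ERK feedback genes were lower in the fit over 7 libraries. The higher count of ERK feedback genes was 0 in the other 3 of those fits and that of immediate early genes 0 without replicate 1 with BCAA. Of 22 YAP and TEAD targets 5 were higher, FSTL1 among them (22904 and 21652 with BCAA and 13897 and 14616 without them, 0.64), and 2 lower. The higher count was 2 without replicate 1 of either condition and 3, with 1 lower, without replicate 2 of the starved cells. Of 13 polyamine genes 5 were higher and 3 lower, with OAZ1, the antizyme that limits polyamine synthesis, at 0.42, and 3 were higher without replicate 1 of either condition. MXI1, a MAX partner that opposes MYC, was lower (1581 and 1744 with BCAA and 2872 and 2723 without them, -0.75), 1 of 2 lower in the MYC network of 11.

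**Figure D5:**
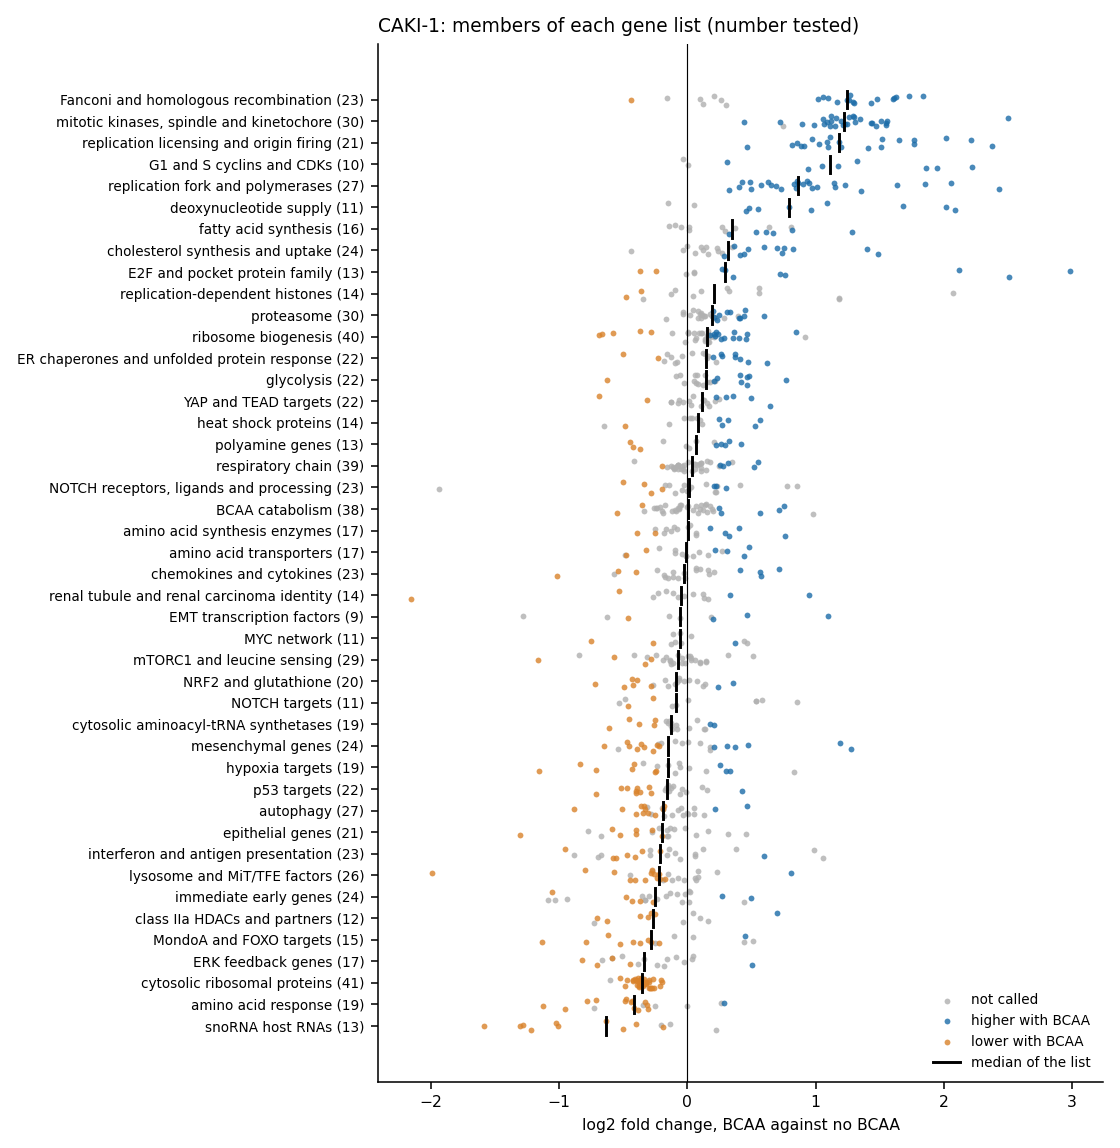
Log2 fold change (horizontal axis, BCAA against no BCAA) of each tested member of the gene lists with 9 or more tested members, 1 list per line ordered by its median (black bar), with members called higher in blue, called lower in orange and uncalled in grey. Replication, mitosis and recombination lists lie to the right of 1 or near it, most lists straddle 0, and the ribosomal protein, amino acid response and snoRNA host lists lie to the left.

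Below a mean of 100, 117 genes were higher and 113 lower of 9627 tested. The largest rises with means of 20 or more were E2F2, HHIP, a hedgehog-binding protein (149 and 107 with BCAA and 13.3 and 34.7 without them, log2 fold change 2.49, SE 0.41), the fucosyltransferase FUT9 (2.31), LRRC15, a membrane protein of mesenchymal cells (2.18), and AL161891.1, a sense-intronic RNA (2.16). CD22, a B-cell lectin, was the largest fall, at 12.6 and 8.32 with BCAA and 62.7 and 52.8 without them (-2.38, SE 0.40), followed by AP000347.1, GPNMB, ZBBX and DNER at -2.04, -1.99, -1.91 and -1.91. These genes had larger SE than the largest well-read rises, FUT9 and ZBBX were lost under quantile normalization, and LRRC15, GPNMB and DNER in all 4 fits over 7 libraries. MAP2, a neuronal microtubule protein kept as a marker of other cells, also fell (34.1 and 34.9 with BCAA and 119 and 127 without them, -1.80), while the other 4 neural markers tested were at or below a mean of 20.

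Several of these responses differed in size or direction from those of 769-P, as tested by the interaction of BCAA and cell line in limma over 19406 genes present in both tables, where 4088 (21.1%) passed an adjusted p of 0.05. The 2 tables were normalized separately, so only the differences within each line enter this test. Of the largest rises, MYBL2 rose further in CAKI-1, by 2.57 against 1.55 in 769-P (difference 1.02, adjusted p = 1.74e-06) and so did E2F1, by 2.12 against 1.05 (difference 1.07, adjusted p = 3.75e-05). For ESCO2 and E2F8 the difference did not pass (0.22 and 0.11, adjusted p = 0.295 and 0.805). Over 7 lists of replication, mitosis and recombination genes, 118 members that rose in CAKI-1 could be compared, and the rise was larger in CAKI-1 for 21, smaller for 23 and not shown to differ for 74. MYBL2 and E2F1 were picked by their rise in CAKI-1 and these members by being called there. The same CAKI-1 values enter the difference, so these comparisons lean toward larger rises in CAKI-1. CDKN2C rose less in CAKI-1, by 0.78 against 2.60 (difference -1.82).

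Stress, transport and lipid genes were set side by side after their values were seen. DDIT3 was lower with BCAA in both lines, by less in CAKI-1, -1.12 against -2.91 in 769-P (difference 1.79, adjusted p = 1.35e-06) and ASNS likewise, -0.40 against -2.26 (difference 1.86). SLC7A5 rose by 0.44 in CAKI-1 and was at -2.80 in 769-P (difference 3.24, adjusted p = 1.54e-10). STARD4 rose by less in CAKI-1, 0.82 against 2.79 (difference -1.96). For SNAI1 the rise was 1.10 in CAKI-1 and 2.68 in 769-P, a difference of -1.59 (adjusted p = 0.00374), and SNAI2 was lower in both, at -0.46 and -3.00 (difference 2.54). SIGLEC15 and EVI2A, among the largest falls in CAKI-1, were higher with BCAA in 769-P, at 1.76 and 2.05, with differences of -3.46 and -3.59 between the lines.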

How the data were processed

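RNA of CAKI-1 and 769-P cells was sequenced in 8 libraries, 2 per line and condition. Per the submitters' processing notes, reads were trimmed with Trim Galore, aligned to hg38 with TopHat2 2.1.0, sorted with SAMtools 1.3.1 and counted with HTSeq 0.6.0, with DESeq and DESeq2 also named. The gene annotation is not given in the sources used here. The authors deposited 1 table per line, in which each value (a signal) is a gene's read count divided by the library's size factor. All values were whole multiples of 1 read within 1e-06, so the read counts could be recovered. Symbols for 23881 of 24190 gene IDs came from GENCODE 29.

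Every gene whose mean value reached 1 was tested on log2(value + 1) with limma 3.58.1 (R 4.3.3, intensity-dependent trend, two-sided), and a gene was called at a Benjamini-Hochberg adjusted p of 0.05 over all genes tested, with no minimum fold. On this scale the fold changes of low genes are understated. The replicates differed by more than sampling noise (chi-square per degree of freedom of 12.9 with BCAA and 8.27 without). On data simulated for 20602 genes of this comparison, 67 genes were changed by 1.5-fold, 67 by 2-fold and 66 by 4-fold. The test recovered 71.6% of the changes of 1.5-fold, 76.1% of 2-fold and 100% of 4-fold, with 3 false calls. The changed genes were a far smaller share than the 19.9% called in the data, and recovery was not split by depth. These rates therefore do not give the power for rarely read genes or for the comparison as a whole. The alternatives run on recovered reads were edgeR 4.0.16 (quasi-likelihood) and DESeq2 1.42.0; the others were scalings, pseudocounts, filters and thresholds, reads thinned to the shallowest library, all 8 libraries in 1 fit, the replicate number as a block, and each library left out. The fits over 7 libraries and the leave-one-out fits of the difference between lines were added after seeing the data.

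The genes and lists were chosen with earlier results of these data known. Genes were named by rule: those the study names; the 15 largest well-read rises and falls whose conditions do not overlap; 5 of each with means of 20 to under 100; up to 6 called members per list with the largest change, and any member of lists of 12 or fewer; the 3 highest values; and the 10 smallest p. EEF1A1, SPC25, FANCF and the markers PAX8, MET and CDH1 were added afterwards, and results for some genes that the rule names are not reported here.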

Additional observations from a re-analysis of the deposited data

Results flagged for a closer look

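The values here are the log2 fold change in CAKI-1 minus that in 769-P for the genes named for their own change or by the study, and for list members chosen after their values were seen, whose BCAA effect differed between the lines in the limma interaction test at an adjusted p of 0.05 (4088 of 19406 genes tested passed). How such differences arise was not tested. Genes named for their own change in CAKI-1 were picked by values that enter this difference, which leans toward larger changes there.

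For the replication and cell cycle genes named for their own change the rise was larger in CAKI-1 for E2F1 (1.07), CLSPN (1.04), MYBL2 (1.02), CDC45 (0.96), FAM111B (0.70), CDC6 (0.66), ATAD2 (0.61), UHRF1 (0.49), MCM4 (0.44), TK1 (0.41) and FEN1 (0.25), and smaller for RRM2 (-0.37). The processed pseudogene AC112777.1, also named for its own change, rose further in CAKI-1 (0.56). The CDK inhibitor CDKN2C, named as a list member, rose less in CAKI-1 (-1.82). Over all members of the replication, mitosis and recombination lists that rose in CAKI-1, the rise was larger there for 21 and smaller for 23 of 118. These members were picked by their call in CAKI-1, so this count leans the same way.

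Genes that were lower with BCAA in both lines, by less in CAKI-1, were BEX2 (4.15), SNAI2 (2.54), EPAS1 (2.50), ASNS (1.86), DDIT3 (1.79), TRIB3 (1.60), TXNIP (1.42), ZFAS1 (1.06), GAS5 (1.02), KRT7 (0.57) and EEF1A1P5 (0.33), along with IL6 (3.20). The fall was larger in CAKI-1 for SNHG1 (-0.50), LETMD1 (-0.55), ABCA3 (-0.73) and VIM (-0.61), the last of which was at -0.04 in 769-P.

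The estimates had opposite signs in the lines for SLC7A5 (3.24), GPNMB (-3.69), EVI2A (-3.59), SIGLEC15 (-3.46), CD22 (-3.19), TCN2 (-1.80), PPARGC1A (-1.50), BCAT2 (0.90), FN1 (-0.89), BCKDHB (-0.79), NOTCH1 (0.74) and BCKDK (-0.37), and PPARGC1A, BCAT2, BCKDHB, NOTCH1 and BCKDK were not called in CAKI-1 alone. SNAI1 (-1.59) and STARD4 (-1.96) rose less in CAKI-1. THBS1 (1.17) rose in CAKI-1 and was at 0.10 in 769-P, and PAX8 (0.47) was at -0.17 and -0.64.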

How the results depend on the processing

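The 2312 genes higher and 1931 lower with BCAA became 2237 and 2160 in edgeR and 2095 and 1695 in DESeq2, with 2212 and 1923 shared with edgeR. Quantile normalization gave 1417 higher (1361 well-read). An adjusted p of 0.01 gave 1417 and 1012 (1390 and 997 well-read), a fold of at least 1.5 gave 725 and 481 (608 and 368), and a fold of at least 2 gave 303 and 145 (208 and 57). Leaving out any 1 library left 0 calls in each direction in limma on 3 libraries, well-read genes included, where 1 residual degree of freedom remains. The SNAI1 fold change then ranged from 0.95 to 1.24 and passed in none of the 3-library fits, and of the 4 fits over 7 libraries it missed in 1, at 0.97. The difference between the lines counted 2917 to 4113 genes with 1 library left out.

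The replicate numbers are shared between conditions, but deviations of same-numbered libraries correlated at only 0.06, so the numbers were not taken as pairs. A fit with the number as a block called 2133 higher and 1803 lower, and 4 of the 176 called genes named here lost their call while ABCA1 was called lower. Of those 176, 148 kept it under every alternative with all 4 libraries other than changes of threshold, and 149 in all 4 fits over 7 libraries; quantile normalization removed 21.

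Genes near 0 changed sign: HDAC7 was -0.029 under quantile normalization and -0.012 to 0.095 with 1 library left out, NOTCH1 -0.029 under quantile normalization and -0.059 to 0.089 with 1 library left out (-0.031 without replicate 1 of the starved cells), CCND1 -0.0061 with TMM factors, -0.0060 in edgeR and -0.056 to 0.067 with 1 library left out (-0.021 without replicate 1 of the starved cells), CDK4 0.0078 under median centering and ACTG1 0.15 under quantile normalization. Under the other scalings the median over all genes shifted by at most 0.04. Genes with few reads are limited by depth, and with 2 libraries per condition a single library decides many of the smaller calls.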
